A study of Mus musculus with 2 samples.

Results

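Cxcl9, Cxcl10 and Irf8, 3 of the 14976 genes listed in both count tables, were followed through the endothelial cells (ECs) of normal mouse mammary gland and of mammary tumors. ECs from pooled normal mammary glands (NECs) came, per the labels, from C57BL/6 mice aged 6 to 8 weeks. Tumor ECs (TECs) came from pooled tumors of E0771, a murine mammary carcinoma line implanted orthotopically, and their labels give neither strain nor age. Both suspensions were digested with collagenase, sorted as CD45-/CD31+ and sequenced as 1 droplet library each, with no drug or engineered allele named in the labels. Other labels of the normal library name TECs and E0771, while its title and the deposited design name normal glands, and it was read as normal.

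ECs were taken from each table by counts of unique molecular identifiers (UMIs, 1 per captured transcript). A cell was kept with at least 200 genes, under 10% mitochondrial UMIs, no UMI of Ptprc (CD45), Myh11 (smooth muscle), Epcam (epithelium) or Cspg4 (pericytes), and at least 1 UMI of Cdh5 or Pecam1, the endothelial adhesion molecules VE-cadherin and CD31. In the tumor table, Cdh5 plus Pecam1 also had to exceed Rhox5 plus Hmga2 plus Krt8. This left 4940 NECs of 9047 barcodes, with 17327221 UMIs and a median of 2976.5 per cell (500 to 29715), and 261 TECs of 704 barcodes, with 4646103 UMIs and a median of 16989 (510 to 55669). A TEC therefore held 5.71 times as many UMIs at the median, and shares of cells with a UMI are given both as counted and after random thinning of every cell to 1900 UMIs, which left 3831 NECs and 239 TECs. The libraries shared 3 barcodes, 0 of them among kept cells. Cdh5 was detected in 4477 NECs and 253 TECs and Pecam1 in 4515 and 247, which the rule partly fixes, and their summed levels were close in both libraries, at 984 and 1151 UMIs of Cdh5 per 1000000 UMIs (CPM) and 1174 and 980 CPM of Pecam1 in NECs and TECs. With 1 library per condition there was no replicate and no test, and every interval below is a 95% interval (Clopper-Pearson for shares, Poisson for sums, exact conditional for ratios) that covers counting error only. Where a count is 0, the value it is said to allow is instead the level that 3 counts would give. The condition, the library and the depth cannot be told apart.

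CXCL9 and CXCL10 are chemokines that bind CXCR3 on activated CD8+ and Th1 T-cells, and ECs that display them help such cells to leave the blood. Interferon-gamma acts on its target promoters mainly through GAS elements, and type I interferon mainly through ISRE elements. TNF acts on many of the same promoters through NF-kappaB. IRF8 is an interferon-inducible transcription factor best known from dendritic cells, macrophages and B cells.

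Cxcl9 (ENSMUSG00000029417) lies on the minus strand of chromosome 5 of GRCm38, from 92321347 to 92328079, and Cxcl10 (ENSMUSG00000034855) beside it, on the same strand from 92346638 to 92348889, with 18558 bases between them. Irf8 (ENSMUSG00000041515) is on the plus strand of chromosome 8, from 120736358 to 120756694. Because the 3 genes are targets of the pathways above, the 250 bases before each RefSeq start (GRCm38.p6), 5′ to 3′ on the gene's strand, are printed with every match to an ISRE (GAAA, any 2 bases, GAAA), GAS (TTC, any 3 bases, GAA) or kappaB (GGG, any 2 or 3 bases, TTCC) pattern on either strand in capitals.
Cxcl9, chr5:92328080-92328329, minus strand: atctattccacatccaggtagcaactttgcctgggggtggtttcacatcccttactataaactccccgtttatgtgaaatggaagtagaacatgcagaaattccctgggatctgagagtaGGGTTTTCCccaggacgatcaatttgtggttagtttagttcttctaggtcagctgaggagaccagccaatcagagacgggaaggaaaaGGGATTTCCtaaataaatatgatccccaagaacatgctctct
Cxcl10, chr5:92348890-92349139, minus strand: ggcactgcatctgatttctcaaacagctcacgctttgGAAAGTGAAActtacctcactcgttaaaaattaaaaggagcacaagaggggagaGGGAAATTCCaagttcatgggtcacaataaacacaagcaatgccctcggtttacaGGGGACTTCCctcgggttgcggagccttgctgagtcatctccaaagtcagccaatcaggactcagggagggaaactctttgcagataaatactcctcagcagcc
Irf8, chr8:120736108-120736357, plus strand: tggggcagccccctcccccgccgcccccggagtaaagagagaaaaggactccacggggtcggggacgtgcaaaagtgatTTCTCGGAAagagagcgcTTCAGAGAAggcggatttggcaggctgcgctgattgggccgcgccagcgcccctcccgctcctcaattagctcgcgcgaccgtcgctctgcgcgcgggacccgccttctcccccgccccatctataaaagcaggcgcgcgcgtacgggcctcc
The Cxcl9 window held 2 kappaB matches, GGGTTTTCC and GGGATTTCC, and no match to the other patterns. The Cxcl10 window held 1 ISRE match, GAAAGTGAAA, at 213 to 204 bases before the start, and kappaB matches at 159 to 150 and 104 to 95 bases, the latter of which also holds a match to the shorter form of the pattern. The Irf8 window held 2 GAS matches, TTCTCGGAA and TTCAGAGAA, at 171 to 163 and 153 to 145 bases. Over the same stretch of 32851 RefSeq starts, 2.98% held the ISRE, 7.02% the GAS and 8.26% the kappaB pattern. These are matches of letters and not measured sites.

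In the normal library all 3 genes were detected in a minority of ECs. Cxcl9 had 2854 UMIs in NECs, or 165 CPM (159 to 171), in 787 cells, which is 15.9% of them (14.9 to 17.0%) and 11.9% at 1900 UMIs (10.8 to 12.9%). Cxcl10 had 3551 UMIs, or 205 CPM (198 to 212), but in fewer cells, 477 or 9.66% (8.85 to 10.5%), and 7.88% at equal depth (7.05 to 8.78%). Irf8 had 629 UMIs, or 36.3 CPM (33.5 to 39.3), in 371 cells, 7.51% (6.79 to 8.28%), and 4.70% at equal depth (4.05 to 5.42%).

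Free RNA can give such shares without expression. In the 652 cells of the same library with at least 2 Epcam UMIs (median 11089 UMIs), taken here as a reference although free RNA and expression were not told apart in them, the shares at 1900 UMIs were 0.464% for Cxcl9, 2.63% for Cxcl10 and 2.32% for Irf8, and before thinning 1.99%, 6.75% and 8.44%. At equal depth each NEC share was above that level, while before thinning the Irf8 share was not. A share of Cxcl10 or Irf8 at or under 2.63% or 2.32% in a cluster of NECs is read below as not above that reference. In proportion, thinning lowered the shares of these deeper Epcam-positive cells more than the NEC shares, so this cut may be too low. Cells of the normal library with at least 3 UMIs of mural markers (261 cells, median 5827 UMIs) differed by gene: Cxcl9 was at 1.18 CPM there and in 0 of 236 thinned cells, which allows up to 1.27%, but Cxcl10 was at 181 CPM and in 9.75%, and Irf8 at 35.3 CPM and in 4.66%, close to the average NEC. Cxcl9 was thus the gene whose level in ECs stood furthest above that of the mural cells beside them.

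The TEC library was higher for all 3 genes, whose reference was taken from its 189 cancer-like cells (at least 2 UMIs of Rhox5, Hmga2 and Krt8, more than of Cdh5 plus Pecam1, and none of Ptprc, median 61191 UMIs). Cxcl9 had 9865 UMIs in the 261 TECs, or 2123 CPM (2082 to 2166), in 223 cells, 85.4% (80.6 to 89.5%), and in 67.4% at 1900 UMIs (61.0 to 73.3%) against 1.63% of the cancer-like cells. Cxcl10 had 5441 UMIs, or 1171 CPM (1140 to 1203), in 122 cells, 46.7% (40.6 to 53.0%), and in 28.0% at equal depth (22.4 to 34.2%) against 5.43%. Irf8 had 854 UMIs, or 184 CPM (172 to 197), in 179 cells, 68.6% (62.6 to 74.2%), and in 23.4% at equal depth (18.2 to 29.3%) against 1.09%. Before thinning the shares of the cancer-like cells, whose median was 61191 UMIs, were 22.2%, 31.2% and 38.1%, so that in proportion thinning lowered this reference more than the TEC shares. Most TECs held a Cxcl9 transcript, and Irf8, which before thinning was found in more TECs than Cxcl10, fell to a share within the Cxcl10 interval at equal depth.

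As a ratio of summed CPM, Cxcl9 was 12.9-fold higher in TECs (12.4 to 13.4), Cxcl10 5.71-fold (5.48 to 5.96) and Irf8 5.06-fold (4.56 to 5.62). Among the 6873 genes with at least 20 CPM in 1 library and 10 UMIs in all, 773 (11.2%) were at least 2-fold higher and 1311 (19.1%) at least 2-fold lower in TECs, so that 3 of 3 genes lay among the 11.2%, at ranks 56, 158 and 179. The median log2 ratio of all genes was -0.08, that of Cdh5 corresponded to a ratio of 1.17 and that of Pecam1 to 0.835. The ratios rest on 1 library each. Without the 1% of cells of each library with the most Cxcl10 its log2 ratio was 3.32 in place of 2.51.

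Which vessels the positive NECs belonged to was read from 16 clusters, built without the 3 genes or any gene of the pathway lists below among the variable genes, and named from marker lists. Of the NECs, 44.0% were in capillary-like clusters (Car4, Cd36, Timp4, Aqp7 and other capillary markers), 13.1% in arterial-like ones (Gja5, Sema3g, Stmn2 and others), 9.01% in venous-like ones (Ackr1, Selp, Vwf, Lbp and others), 1.92% in a cluster like high endothelial venules (HEV-like, Glycam1 and other HEV markers) and 29.3% in clusters that met no name. Of the unnamed, cluster 14 (45 cells) carried 7 mural and 3 fibroblast markers, Pdgfrb and Col1a1 among them, with 22.7 CPM of Cxcl9, 120 of Cxcl10 and 26.0 of Irf8. Arterial-like NECs were close to empty of all 3 genes, with 13.9 CPM of Cxcl9, 20.9 of Cxcl10 and 5.11 of Irf8, and they held 1.02%, 3.56% and 2.43% of the positive cells. By cluster names, the chemokines were divided differently between the other vessel types, which leans on the unnamed clusters. Capillary-like clusters held 64.3% of the Cxcl9-positive NECs (60.8 to 67.6%) but 28.9% of those positive for Cxcl10 (24.9 to 33.2%) and 18.1% of those positive for Irf8 (14.3 to 22.4%). Venous-like clusters held 10.0%, 15.3% and 18.3% of the positive cells and more of the UMIs, 23.1% of Cxcl9, 42.4% of Cxcl10 and 28.6% of Irf8. The HEV-like cluster, at 303, 335 and 50.1 CPM, held 3.30%, 5.24% and 6.20% of the positive cells, and the unnamed clusters held 18.7%, 44.7% and 53.6%. Of these, unnamed cluster 2 held 5.08%, 23.5% and 23.5%, and unnamed cluster 5 held 9.15%, 10.5% and 14.6%. They share leading genes with capillary-like clusters 3 and 0, respectively (below). Counted as capillary-like, they would narrow the contrast of Cxcl9 with Cxcl10 and Irf8.

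The capillary-like shares depended on how cells were sorted into vessel types: with 10 principal components in place of 20, 34.9% of the Cxcl9-positive, 8.39% of the Cxcl10-positive and 4.58% of the Irf8-positive NECs were in capillary-like clusters, where 7 of 14 clusters were named in place of 11 of 16. The venous-like shares stayed within their counting intervals under the other numbers of components and resolutions, but with a mitochondrial limit of 5% they were 7.82%, 11.5% and 12.2%. Counting cells with at least 2 UMIs, 23.0% of the Cxcl10-positive and 28.8% of the Irf8-positive NECs were venous-like, and 8% of the latter capillary-like. When each cell was given the vessel list with the most UMIs, 94.7% of all NECs went to the capillary list, and with them 95%, 87.6% and 87.6% of the positive cells, so that rule separated few vessels.

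Within the capillary-like clusters Cxcl9 was uneven. Cluster 9, led by Mt2 and Cfd, was at 623 CPM with Cxcl9 in 39.2% of thinned cells, and cluster 1, with Aqp7 and Cldn15 among its leading genes, at 458 CPM with 42.3%, whereas cluster 0, led by Car8 and Timp4, was at 48.3 CPM with 6.01% and cluster 3, led by Meis2, at 7.41 CPM with 0.792%. Clusters that share the capillary name therefore spanned the Cxcl9 range. Cxcl10 did not follow this order, since cluster 1, among the highest for Cxcl9, was at 63.9 CPM with Cxcl10 in 4.77% of thinned cells, while cluster 9 was at 429 CPM with 20.1%. In cluster 1, 1 cell held 51 of the 119 Cxcl10 UMIs, and without it Cxcl10 was at 36.7 CPM. Irf8 in cluster 1 was at 6.98 CPM and in 1.14% of thinned cells, under the reference share, and in cluster 9 at 43.2 CPM and 4.79%. Cluster 1 thus combined a high share of Cxcl9 with little Cxcl10 and an Irf8 share not above the reference.

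By summed level, Cxcl10 was highest in the venous-like clusters and Irf8 in venous-like cluster 11. Cluster 11 (111 cells, with Htr2b and Gria3 among its leading genes and named from Lbp, Nr2f2 and Vwf) was at 1033 CPM of Cxcl10, 692 of Cxcl9 and 214 of Irf8, and venous-like cluster 6 (334 cells, led by Selp, Ackr1 and Sele) at 623, 204 and 48.8 CPM. In cluster 11 a few cells carried these sums, as 9.09%, 12.1% and 14.1% of its thinned cells had Cxcl9, Cxcl10 and Irf8. By share of thinned cells Cxcl10 was more frequent in capillary-like cluster 9 (20.1%) and unnamed cluster 2 (17.1%) than in clusters 6 (14.6%) and 11, with overlapping intervals. A single cell held 183 of its 324 Cxcl9 UMIs, and without it Cxcl9 was at 309 CPM, while Cxcl10 and Irf8 without their own top cells were at 818 and 188 CPM.

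Ordered by level, Cxcl9 was highest in venous-like cluster 11 and capillary-like cluster 9, whose intervals overlapped, followed by capillary-like cluster 1, the HEV-like cluster and unnamed cluster 5 at 268 CPM. The place of cluster 11 rests on 1 cell. Without the top Cxcl9 cell of each, cluster 11 was at 309 CPM, below clusters 9 (592 CPM) and 1 (440 CPM). The following levels, from venous-like cluster 6 to arterial-like cluster 4 at 0.787 CPM, overlapped each with the next. Cxcl10 was highest in the venous-like clusters, 11 above 6, then in cluster 9, and then in unnamed cluster 2 at 344 CPM, the HEV-like cluster and cluster 5 at 271 CPM, whose neighbours overlapped. At its lower end were capillary-like cluster 0, arterial-like cluster 4 and unnamed cluster 7, at 9.76, 8.66 and 5.34 CPM. Irf8 was highest in cluster 11, then in cluster 5 at 95.7 CPM, and from cluster 2 at 60.8 CPM down each level overlapped with the next. A cluster of 101 shallow cells with salivary secretory transcripts (median 783 UMIs) had 117 CPM of Cxcl9 and no UMI of Cxcl10 or Irf8, which allows up to 31.8 CPM of each. Salivary transcripts were spread over the whole library, at 2293 CPM in NECs (most abundant Bpifa2, 1039 CPM), and at equal depth were found in 86.8% of cells with Cxcl9 and 86.9% of cells without it. Whether all NECs, and the vessel types read from them, came from mammary gland was not tested.

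**Figure D1:**
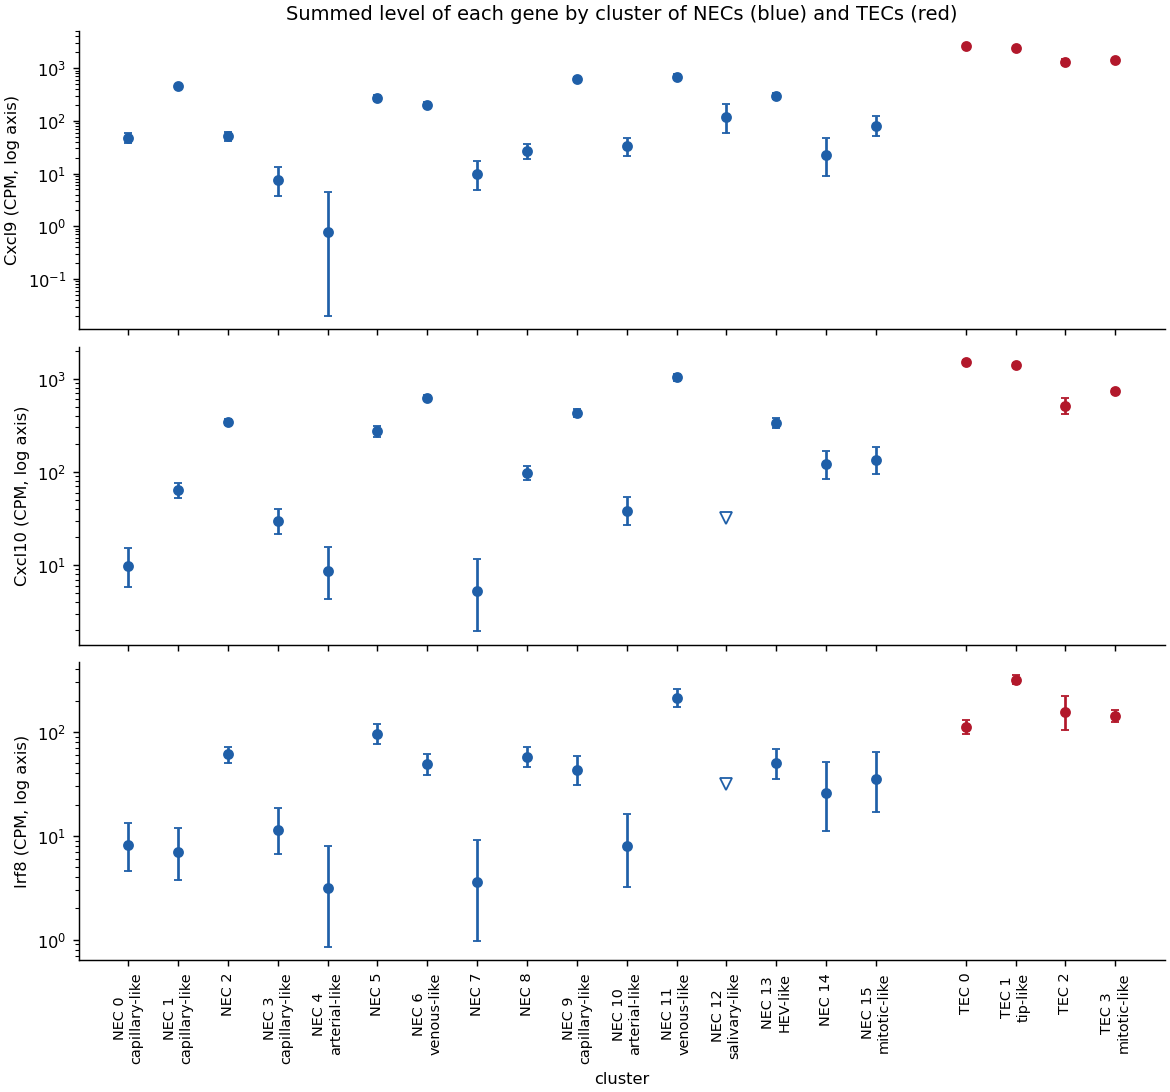
Summed level (CPM, log axis) of Cxcl9, Cxcl10 and Irf8 in each NEC cluster (blue) and TEC cluster (red), with Poisson 95% intervals and open triangles for the level that 3 UMIs would give where none was counted. Cxcl9 spans 0.787 to 692 CPM over NEC clusters and 1322 to 2696 CPM over TEC clusters, and Irf8 is highest in NEC cluster 11 (214 CPM) and in the tip-like TEC cluster (318 CPM).

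In TECs the 3 genes varied less from cluster to cluster. Cxcl9 was at 2696 CPM in unnamed cluster 0 (88 cells), 2415 in the tip-like cluster (61 cells, with Pgf, Adm and 3 more tip markers), 1435 in the mitotic-like cluster (54 cells) and 1322 in unnamed cluster 2 (58 cells, median 2240.5 UMIs), and the last 2 overlapped. Cxcl10 followed the same order, at 1514, 1410, 727 and 514 CPM, of which the upper pair overlapped. Irf8 was at 318 CPM in the tip-like cluster and at 154, 143 and 112 CPM in clusters 2, 3 and 0, which overlapped each with the next, and was found in 44.3% of thinned tip-like cells (31.5 to 57.6%) against 13.6 to 22.2% in the others. The lowest TEC cluster for Cxcl9 was thus above the highest NEC cluster, at 692 CPM. Unnamed TEC cluster 0, the highest for Cxcl9, carried the arterial markers Gja4, Sox17, Hey1, Efnb2, Sema3g and Fbln5. Beside these it had the venous markers Vwf and Il1r1 and the capillary markers Cd36 and Cldn15. The low levels of arterial-like NECs were therefore not seen in this TEC cluster.

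Several NEC clusters came in pairs that shared leading genes but differed in the 3 genes. All 6 pairs that share at least 10 of their top 50 genes by fold were taken, with the cluster higher in Cxcl10 as the upper one, a rule set after the values had been seen, so that the order is fixed for Cxcl10 and the ratios are a description. Unnamed cluster 5 shared 10 of these genes with capillary-like cluster 0 (Car8 is among the leading genes of both), and had 27.8-fold more Cxcl10 (17.2 to 47.6), 11.8-fold more Irf8 (6.74 to 22.0) and 5.54-fold more Cxcl9 (4.32 to 7.16). Capillary-like cluster 9 shared 17 with cluster 1, and its ratios were 6.71 for Cxcl10 (5.44 to 8.31), 6.19 for Irf8 (3.23 to 12.7) and 1.36 for Cxcl9 (1.22 to 1.52), which is itself among the 17 shared genes, so that a like level was partly built into the choice. Without the top Cxcl10 cell of each, clusters 9 and 1 were at 393 and 36.7 CPM in place of 429 and 63.9. The Cxcl10 ratio would then be larger than its counting interval allows. Unnamed cluster 2 shared 12 with capillary-like cluster 3, with ratios of 11.6 (8.56 to 16.1), 5.31 (3.19 to 9.40) and 6.93 (3.72 to 14.3). Unnamed cluster 8 shared 25, Penk among them, with unnamed cluster 7, with ratios of 18.4 (8.24 to 51.0), 16.2 (6.11 to 61.0) and 2.70 (1.35 to 5.86). The lower cluster was at or under the reference share of Epcam-positive cells for Irf8 in all 4 of these pairs, and for Cxcl10 in clusters 0 and 7, so the size of those ratios is uncertain beyond the counting intervals. In these 4 pairs the ratio of Cxcl10 was above that of Cxcl9, with overlapping intervals for cluster 2 over 3. In the arterial-like and the venous-like pair it was not. Arterial-like cluster 10 shared 21 genes with cluster 4, and its ratios were 4.44 for Cxcl10 (2.20 to 9.72), 2.52 for Irf8 (0.640 to 11.7) and 41.7 for Cxcl9 (6.91 to 1703). The last rests on 1 UMI in cluster 4 and on 29 in cluster 10, of which 1 cell held 21. Without that cell Cxcl9 was at 9.17 CPM in cluster 10 in place of 32.8. Cxcl10 and Irf8 were in both clusters not above the reference share. Venous-like cluster 11 shared 10 with cluster 6, with ratios of 1.66 for Cxcl10 (1.48 to 1.85), 4.37 for Irf8 (3.23 to 5.95) and 3.39 for Cxcl9 (2.90 to 3.97), the last resting largely on the single cell of cluster 11 described above.

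Irf1, an interferon- and NF-kappaB-inducible factor, was higher along with Cxcl10 and Irf8 in the first 4 pairs, at ratios of 9.90, 7.70, 5.04 and 7.78 in the same order, and so was Isg15, a ubiquitin-like target of type I interferon, at 3.52, 2.68, 4.02 and 6.87. In the arterial-like pair the ratios of Irf1 and Isg15 were 5.66 and 1.03, and in the venous-like pair 0.445 and 1.42. In the first 4 pairs Gbp2, an interferon-inducible GTPase, was at 1.17, 0.989, 1.07 and 1.95, and Cdh5 at 0.799, 0.805, 1.02 and 0.850. The upper cluster of these 4 pairs also held more transcripts of a list called immediate early here, at ratios of 19.8, 9.71, 2.29 and 13.2. In the arterial-like and the venous-like pair the ratios were 6.57 and 0.605. That list (Fos, Jun, Egr1, Atf3, the heat shock gene Hspa1a and 8 others) was added after the data had been seen. Unlike the pathway lists, it was not left out of the variable genes, so its genes could help to define the clusters. Hspa1a, Atf3 and Egr1 are among the leading genes of cluster 5. A difference in the list between the clusters of a pair was thus partly built in. Over single NECs at 1900 UMIs, cells with Cxcl10 had a median of 32 immediate early UMIs against 7 without, cells with Irf8 32.5 against 8, and cells with Cxcl9 11 against 9. In TECs the medians were 3 against 2 for Cxcl10, 3.5 against 3 for Irf8 and 3 against 4 for Cxcl9. Immediate early genes can rise in dissociation, and their part in the NEC levels was not tested. In falling order of Cxcl10, the list was at 4908 CPM in cluster 11, 8108 in cluster 6, 25580 in cluster 9, 29860 in cluster 2, 6551 in cluster 13 and 31625 in cluster 5. Arterial-like cluster 10 had 23875 CPM of the list with 38.5 CPM of Cxcl10 and 7.92 CPM of Irf8.

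**Figure D2:**
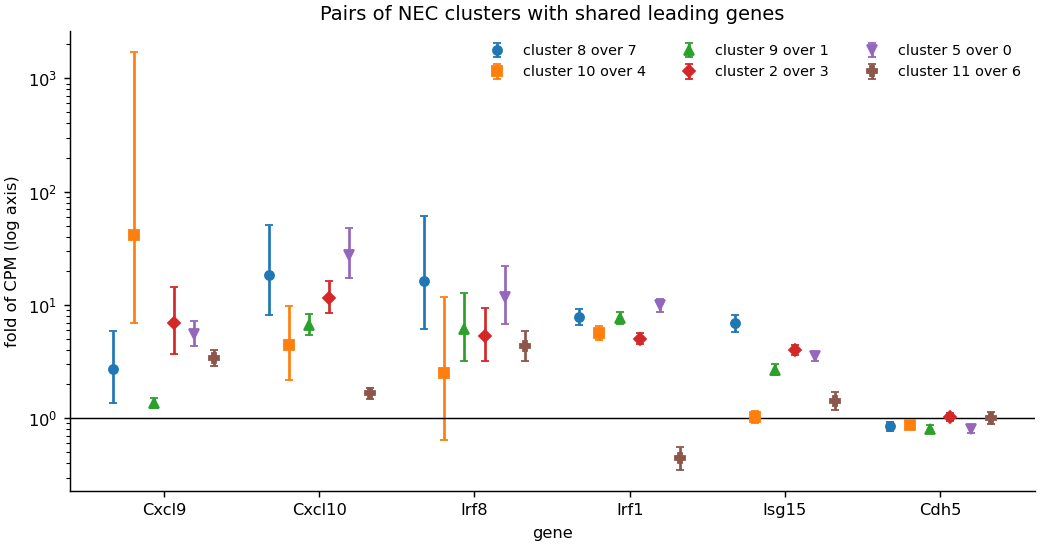
Ratio of CPM (log axis) of the cluster higher in Cxcl10 over the other in 6 pairs of NEC clusters with shared leading genes, with exact conditional 95% intervals. Cxcl10 lies between 1.66 and 27.8, Irf8 between 2.52 and 16.2 (with an interval across 1 for cluster 10 over 4), Cxcl9 between 1.36 and 41.7, and Cdh5 between 0.799 and 1.02.

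The transcripts sat in few cells. Among all NECs, 39 cells (0.789%) held 50% of the Cxcl10 UMIs, 87 (1.76%) those of Cxcl9 and 91 (1.84%) those of Irf8, whereas the same share of Cdh5 took 1107 cells (22.4%). At 1900 UMIs per cell the numbers were 46 cells (1.2%) for Cxcl10, 85 (2.22%) for Cxcl9, 57 (1.49%) for Irf8 and 845 (22.1%) for Cdh5. The chemokines were thus somewhat less concentrated at equal depth, but held by fewer cells than Isg15 (9.14% of thinned NECs for 50% of its UMIs) or Irf1 (10.4%), which the choice of cells did not use. Cdh5 did enter that choice, and it had more UMIs in NECs. Isg15 and Irf1 had more UMIs too, 4152 and 4348 at equal depth against 1099 for Cxcl9 and 1094 for Cxcl10. The measure was not matched for the number of UMIs. The top 1% of NECs held 56.6% of the Cxcl10, 40.2% of the Cxcl9, 35.9% of the Irf8 and 4.88% of the Cdh5 UMIs. Many positive cells held very little: 46.1% of the Cxcl10-positive, 45.0% of the Cxcl9-positive and 66.3% of the Irf8-positive NECs had 1 UMI, while 104, 48 and 2 cells had at least 10.

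For the chemokines the zeros also exceeded what equal cells would give. At 1900 UMIs 92.1% of NECs had no Cxcl10 UMI, against 75.2% for a Poisson count of the same mean, and the variance was 8.90 times the mean. For Cxcl9 the values were 88.1%, 75.1% and 5.84, and for Isg15 the ratio of variance to mean was 3.48. For Irf8 the zeros were 95.3% against 93.8% and the ratio 1.67, beside 1.46 for Cdh5. The mean of Irf8 was 0.064 UMIs per cell and that of Cdh5 1.93. A low mean draws both measures toward a Poisson count, so they cannot show how evenly Irf8 was spread. Between clusters Irf8 was uneven at this depth, with 1.14% of cells (0.370 to 2.63%) in cluster 1 and 13.7% (9.36 to 19.1%) in cluster 5. Within clusters, a low level of Irf8 spread thinly and a higher level in few cells were not told apart.

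The 39 NECs that carried 50% of Cxcl10 were mostly venous-like, 14 in cluster 6 and 7 in cluster 11, with 7 more in cluster 2 and 3 in the HEV-like cluster. Of the 87 that carried Cxcl9, 23 were in cluster 9, 21 in cluster 1, 15 in cluster 6 and 8 in cluster 11. Of the 91 that carried Irf8, 19 were in cluster 2, 17 in cluster 11, 14 each in clusters 5 and 6 and 13 in cluster 8. The top cells held the other genes too. The NEC with the most Cxcl9 (183 UMIs, of 11737 in the cell) had 12 of Cxcl10 and 6 of Irf8, that with the most Cxcl10 (154 UMIs, of 26692) had 44 of Cxcl9 and 6 of Irf8, and that with the most Irf8 (14 UMIs, of 11482) had 43 of Cxcl9 and 88 of Cxcl10. The first and last were in venous-like cluster 11 and the other in venous-like cluster 6, and they held 3, 24 and 4 Cdh5 UMIs and 2, 0 and 2 UMIs over the whole list of 23 leukocyte markers.

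TECs were less uneven for Cxcl9 and Irf8 than for Cxcl10. At 1900 UMIs 30 TECs (12.6%) held 50% of the Cxcl9 UMIs, 19 (7.95%) of Irf8 and 10 (4.18%) of Cxcl10, against 58 (24.3%) for Cdh5, and over all UMIs 26 (9.96%), 35 (13.4%), 9 (3.45%) and 69 (26.4%). Zeros of Irf8, at a low mean of 0.31 UMIs per cell, were at 76.6% against 73.4% for a Poisson count. Those of Cxcl10 were at 72% against 12.8% and those of Cxcl9 at 32.6% against 1.87%. By this measure, the cells that hold 50% of the UMIs, Cxcl10 was the most concentrated of the 3 genes in both libraries, while in thinned NECs the top 5% of cells held 100% of Irf8 and 89.9% of Cxcl10. Of the 35 TECs that carried 50% of Irf8, 22 were tip-like. A single tip-like TEC, with 40966 UMIs in all, held the most Cxcl10 (497 UMIs) and the most Irf8 (27 UMIs), together with 343 of Cxcl9.

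**Figure D3:**
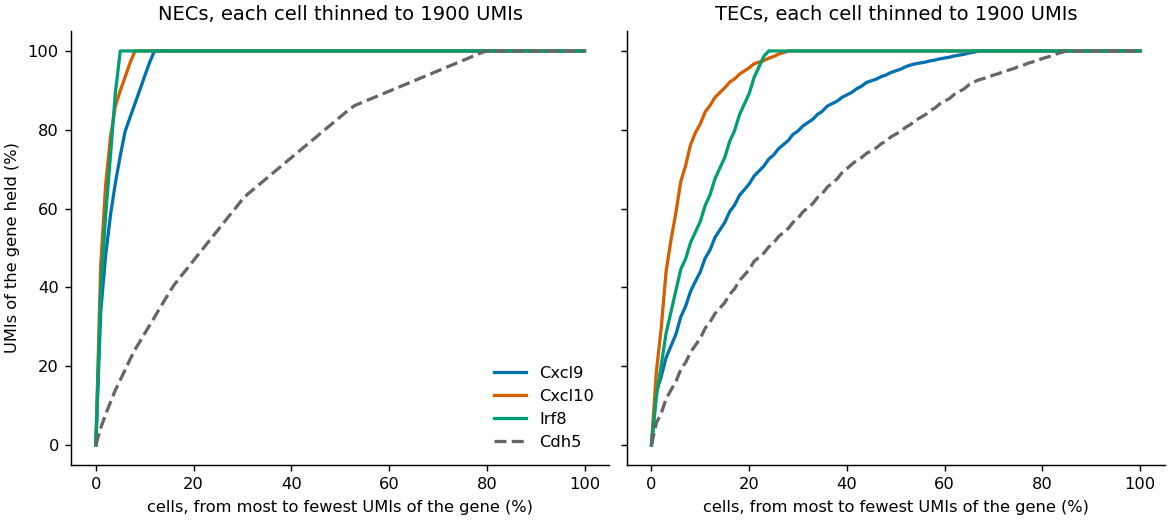
Share of a gene's UMIs (vertical axis, %) held by cells taken from most to fewest UMIs of that gene (horizontal axis, % of cells), in NECs and TECs thinned to 1900 UMIs. In NECs 1.2% of cells hold 50% of Cxcl10 and 22.1% hold 50% of Cdh5, and in TECs 4.18% and 24.3%, with Cxcl9 at 12.6% of TECs.

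At equal depth the genes were found together in the same NECs more often than their separate shares would give. Cxcl10 was detected in 22.7% of NECs with Cxcl9 (18.9 to 26.8%) and 5.89% of those without it (5.12 to 6.74%), Irf8 in 16.9% of those with Cxcl10 (12.8 to 21.6%) and 3.66% without (3.06 to 4.33%), and Irf8 in 9.47% of those with Cxcl9 (6.94 to 12.5%) and 4.06% without (3.42 to 4.78%). The ratios were 3.85, 4.62 and 2.33. By this measure over all NECs the closest pair was Cxcl10 and Irf8, which lie on different chromosomes. Within clusters (below) Cxcl9 with Cxcl10 was as close, at 2.27 times the product against 2.24 for Cxcl10 with Irf8. Isg15, by comparison, was found in 45.4% of NECs with Cxcl9 and 41.7% without, in 60.6% and 40.5% by Cxcl10, and in 65.6% and 41.0% by Irf8. For Irf1 these shares were 52.2% and 45.8%, 73.2% and 44.3%, and 69.4% and 45.5%. Cxcl9-positive cells thus differed little from the others in Isg15 and Irf1, in contrast to cells with Cxcl10 or Irf8.

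An excess over the product of shares was also present within clusters. The product of the shares gives 35.8 NECs with Cxcl9 and Cxcl10, the same product taken within each cluster 45.4, and 103 were counted. For Cxcl10 with Irf8 the values were 14.2, 22.8 and 51, and for Cxcl9 with Irf8 21.3, 20.6 and 43, so that within clusters the counts were 2.27, 2.24 and 2.09 times the product. Vessels differed in this too. Of venous-like NECs with Cxcl9, 58.2% had Cxcl10 (44.1 to 71.3%) against 7.10% without, in the HEV-like cluster 53.8% against 6.85%, and in capillary-like cells 13.6% (9.96 to 18.0%) against 3.43%. In venous-like cluster 11 all 9 thinned cells with Cxcl9 had Cxcl10 and 7 had Irf8, whereas in capillary-like cluster 1 6.99% of the 186 cells with Cxcl9 had Cxcl10. The capillary-like value covers unlike clusters. Of all thinned cells, 14.4% in capillary-like cluster 9 and 4.09% in cluster 1 had at least 2 of the genes. In venous-like clusters 6 and 11 these shares were 9.74% and 9.09%.

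All 3 genes met in 26 of the 3831 thinned NECs (0.679%), while 334 had Cxcl9 alone, 174 Cxcl10 alone, 112 Irf8 alone and 3066 (80.0%) none. Of the 26, 7 were in cluster 11, 5 in cluster 6 and 4 each in clusters 2, 5 and 13. These cells held 20.3% of the Cxcl10, 19.5% of the Irf8 and 11.2% of the Cxcl9 UMIs. Their median Cxcl10 count was 6.5 UMIs, against 2 in cells with 1 of the other genes and 1 in cells with Cxcl10 alone. Cells with at least 2 of the genes held 58.1% of the Cxcl10 and 36.9% of the Cxcl9 UMIs, and made up 14.4% of cluster 9, 11.6% of the HEV-like cluster and 0 of 499 cells of capillary-like cluster 0, which allows up to 0.601%.

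The same comparison was made in TECs. Cxcl10 was in 34.8% of TECs with Cxcl9 (27.5 to 42.7%) and 14.1% without (7.26 to 23.8%), Irf8 in 29.8% with Cxcl9 (22.9 to 37.5%) and 10.3% without (4.53 to 19.2%), and Irf8 in 28.4% with Cxcl10 (18.0 to 40.7%) and 21.5% without (15.6 to 28.4%). Intervals of the last pair overlapped, so a difference was not detectable among 239 cells. The share with Cxcl10 depended on depth, with 32.6% as the expectation over all thinnings and 49.3% (37.6 to 61.1%) at 3000 UMIs. The share among TECs without Cxcl10 at 3000 UMIs is not given, so no excess is read from that value. Within clusters 56 TECs with both chemokines compared with a product of 45.3, or 1.24 times. Cxcl9 was in 67.4% of thinned TECs, which limits how large this ratio can be, so it is not comparable with that of NECs. All 3 genes met in 19 TECs (7.95%), 11 of them tip-like, and 59 (24.7%) had none. Of the 239 thinned TECs, 0 had Cxcl10 and Irf8 without Cxcl9, which allows up to 1.26%. As 11 TECs had Cxcl10 alone and 8 Irf8 alone, unrelated genes would also give few such cells, and nothing is read from the 0.

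**Figure D4:**
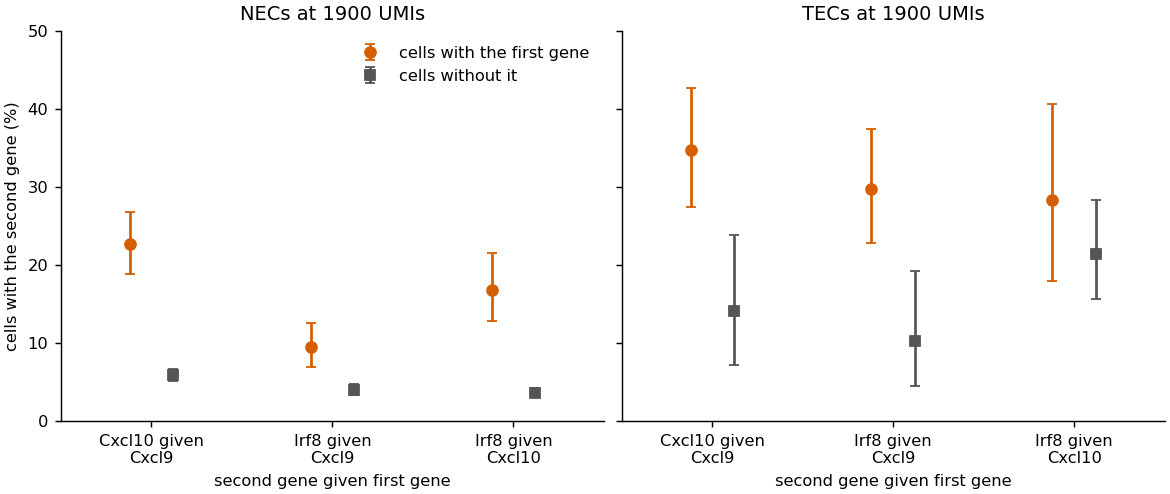
Share of cells (%) with the second gene of each pair, among cells with the first gene (circles) and without it (squares), at 1900 UMIs per cell with Clopper-Pearson 95% intervals. In NECs all 3 pairs of intervals lie apart (22.7% against 5.89% for Cxcl10 by Cxcl9), and in TECs those of Irf8 by Cxcl10 overlap (28.4% against 21.5%).

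Genes found with each of the 3 in NECs were ranked by the ratio of shares at equal depth, over genes seen in at least 1% of cells and 10 positive cells. With Cxcl9, 1.7% of 7711 genes reached a ratio of 2, led by Tmem182 (18.3% against 2.67%), Unc119, Cfd (complement factor D, 13.7% against 2.61%), Adora2a (an adenosine receptor, 11.2% against 2.25%), Car3 (a carbonic anhydrase, 16.3% against 3.29%), Slc16a6, Epor (the erythropoietin receptor), Gm1673, Axl (a receptor tyrosine kinase) and Cd247 (the zeta chain of the T-cell receptor complex, 5.51% against 1.33%), and Cxcl10 ranked 12. Cfd, Car3 and Tmem182 are also among the leading genes of capillary-like cluster 9. With Cxcl10, 2.16% of 6432 genes did so, led by Mir155hg (the host transcript of miR-155, 6.95% against 0.935%), Csf3 (the cytokine G-CSF, 6.95% against 1.13%), Tgif2, Sele (the adhesion molecule E-selectin, 8.28% against 1.56%) and Dsg2, followed by Irf8 at rank 6, Bmp2, Tll1, Postn and Tfpi2, with Cxcl9 at rank 21. With Irf8, 2.96% of 4765 genes did so, led by Csf3 (8.33% against 1.26%), Dsg2, Bmp2 (a bone morphogenetic protein, 7.22% against 1.23%), Ikzf4, F830016B08Rik and Prkab2, followed by Cxcl10 at rank 7, Rab20, Stx11 and Cd74 (the invariant chain of MHC class II, 6.67% against 1.73%), while Cxcl9 ranked 100. Since a gene had to be seen in 10 positive cells, and there were 454, 302 and 180 of these, a rare gene could enter only where it was frequent among them, and the lists are a description that is not comparable between the 3 genes.

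Over the 16 NEC clusters, points that share 1 library and differ in depth, the level of Cxcl10 had a Spearman rho of 0.86 with that of Irf8, rank 2 of 9568 genes after Odc1 (ornithine decarboxylase, 0.96) and before H13, the chemokine Cxcl1 and Rpl23a. Seen from Irf8, Cxcl10 ranked 4 after H13 (0.87), Marcksl1 (0.87) and Nuak2 (0.86), with Mir155hg next (0.84). Cxcl9 was most like Vsir (the checkpoint protein VISTA, 0.84), Pcdhb19 (0.83), Smad1 (0.82), Ppp3ca (0.81) and Trf (0.79), and had a rho of 0.66 with Cxcl10, 0.47 with Irf8 and 0.06 with Irf1.

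The wider pathway differed unevenly between the libraries. Of the CXCR3 axis list, 3 of 6 genes passed the level filter, of which Cxcl9 and Cxcl10 were at least 2-fold higher in TECs and Ackr3, a scavenging chemokine receptor, was within 2-fold (log2 -0.19). Cxcl11, the other CXCR3 ligand, is listed in neither table. Of the IRF family, 6 of 9 passed, too few to read against the 11.2% and 19.1% of all genes, and Irf8 (log2 2.34) and Irf7 (2.25) were higher while Irf1 (-2.23) and Irf2 (-1.18) were lower, with Irf3 and Irf9 within 2-fold. Irf8 and Irf1, both higher in the upper cluster of 4 of the 6 pairs beyond counting error, lay on opposite sides here, although over all 16 NEC clusters they were less alike (rho 0.46), with cluster 11 at 214 CPM of Irf8 and 184 CPM of Irf1.

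Among receptors and signalling genes the counts were few and near the background of all genes (11.2% higher, 19.1% lower): 2 of 15 were higher, among them Ifngr2 (a chain of the interferon-gamma receptor, log2 1.75), and 4 were lower, the feedback inhibitors Socs3 (-2.51) and Socs1 (-1.51), the NF-kappaB inhibitor Nfkbia (-1.37) and Stat3 (-1.16). Of 14 type I interferon targets, 9 were higher and 0 lower, against 11.2% and 19.1% of all genes, with a median log2 of 1.22, among them Oasl1 (2.75), Ifit3 (2.05), Usp18 (1.95), Bst2 (1.69) and Isg15 (1.38), while Ifit1 was at -0.48. Mx1 had the largest value of this list, 4.64, on 15 UMIs in NECs. Of 17 type II targets, 9 were higher and 0 lower, against the same background, with a median of 1.04, among them Serpina3g (2.91), Tap1 (the peptide transporter of antigen presentation, 2.10), Gbp2 (1.96) and Ido1 (1.90), while Iigp1, an immunity-related GTPase, was at -0.33. The medians of both target lists thus lay above that of all genes, -0.08, and single members reached or passed the values of Cxcl10 and Irf8. The immediate early list lay on the other side, with 10 of 13 lower in TECs (19.1% of all genes), 0 higher and a median of -2.06 (Egr1 -3.12), and its part in the comparison was not tested.

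**Figure D5:**
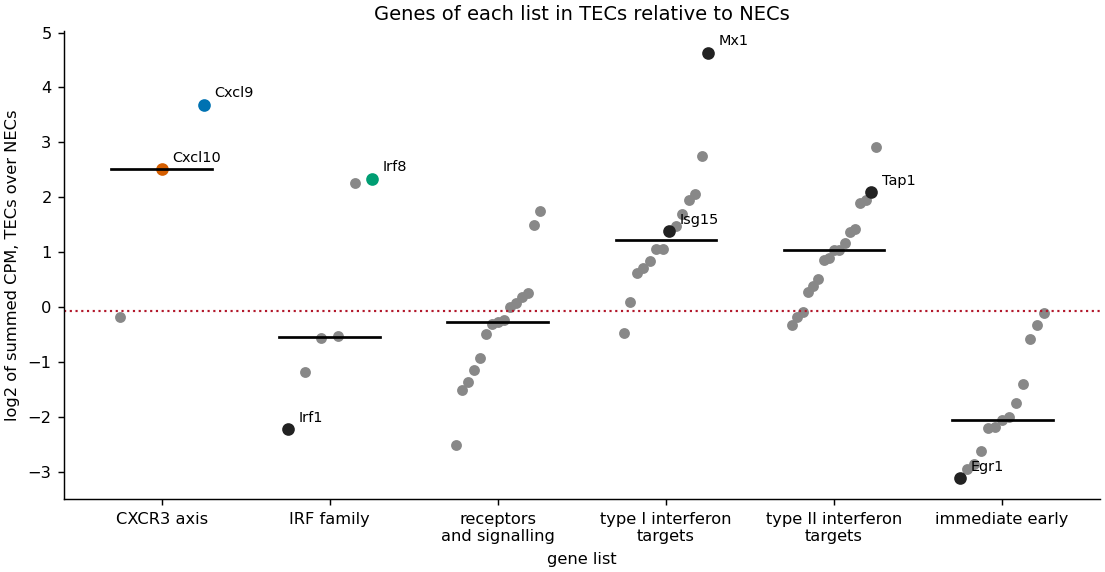
log2 of summed CPM in TECs over NECs for the tested genes of each list (points, with names for some), with the list median (black bars) and the median of all 6873 genes (dotted line, -0.08). Cxcl9 (3.69), Cxcl10 (2.51) and Irf8 (2.34) lie above the medians of the type I (1.22) and type II (1.04) interferon targets, and Irf1 (-2.23) and Egr1 (-3.12) lie below 0.

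Irf8 is abundant in leukocytes, so leukocyte markers were followed beside it. Of 23 leukocyte genes, 18 had any UMI in NECs and 15 in TECs, and their sum was 23.1 CPM in NECs (most abundant Fcer1g, 8.66 CPM) and 39.0 CPM in TECs (most abundant Coro1a, 12.3 CPM), against 5785 CPM in the 51 cells of the normal library with Ptprc UMIs, where Irf8 was at 207 CPM. Itgax was at 0 in both libraries, Flt3 at 0 in NECs, and Csf1r had 3 UMIs in NECs and 0 in TECs. NECs with Irf8 had 40.5 CPM of the list and those without it 20.8 CPM, and at equal depth 3.89% and 2.85% had any of it. TECs with and without Irf8 had 37.5 and 47.2 CPM, and at equal depth 10.7% and 6.56% had any of it. Before thinning Irf8 was in 29 of 31 TECs with Coro1a and 17 of 23 with Fcer1g, against 68.6% of all TECs. Without the cells with a UMI of the list the log2 ratio of Irf8 was 2.28 in place of 2.34, and before thinning Irf8 was in 6.98% of NECs and 62.9% of TECs, against 8.44% of the Epcam-positive and 38.1% of the cancer-like cells. NECs with Cxcl10 also had a larger sum of fibroblast transcripts, 213 CPM against 35.8 CPM, while at equal depth 3.97% and 3.71% of cells had any, and their part in the Cxcl10 level was not tested.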

How the data were processed

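Per the labels and the study's methods, live CD45-/CD31+ cells were sorted from pooled tissue, and the submitters' processing notes name Cell Ranger, Seurat and mm10, without versions. The authors deposited a table of UMI counts per gene and barcode for each library, not normalized (40914092 UMIs, 9047 barcodes and 17641 genes for NECs, 18980858, 704 and 15644 for TECs). No columns were left unused.

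The members, gene lists and rules were chosen with earlier results of these data known. Cells were chosen as described above, counts were summed over cells and scaled to CPM, and cells were thinned to 1900 UMIs (seed 1), which left out 1109 NECs and 22 TECs. Each library was clustered with Seurat 5.3.0 in R 4.3.3 (LogNormalize, 4000 variable genes, of which 3955 in NECs and 3961 in TECs remained after the pathway lists were left out, 20 principal components, 20 neighbors, resolution 0.8). A cluster was named where at least 3 markers of a list were each in at least 25% of its cells and at least 2-fold over other cells, provided that no other list had as many, or had more among its top 10 genes by fold, and a cluster far shallower than its library needed a marker there. Python 3.11.15, numpy 2.4.6, scipy 1.17.1, pandas 2.3.3 and matplotlib 3.10.9 were used. Positions came from GENCODE M21 (GRCm38), promoters from RefSeq. The sums, ratios, thinning and co-detection were tested on simulated data. No doublet caller was run, and the 5% of cells with the most UMIs were left out as an alternative, added after the data had been seen.

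Genes were named by rule: the 3 genes, pathway lists, markers, at most 5 leading genes for any cluster, and the 10 most co-detected and 5 most correlated genes of each of the 3. Immediate early genes and the rule for cluster pairs were chosen after values had been seen. Some genes of the lists and clusters are not reported here.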

Additional observations from a re-analysis of the deposited data

Results flagged for a closer look

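The 3 genes were also present in cells that the rule left out, in more than the 3 cells that a count of 0 allows for. These cells serve in the report only as a reference. In the normal library the mural cells (261) had 181 CPM of Cxcl10 and 35.3 CPM of Irf8, and the 51 cells with Ptprc had 91.6 CPM of Cxcl9, 302 CPM of Cxcl10 and 207 CPM of Irf8. In the tumor library the 41 mural cells had 12.9 CPM of Cxcl9, 15.3 CPM of Cxcl10 and 7.34 CPM of Irf8. The 9 cells with Ptprc had 210 CPM of Cxcl9, and the 189 cancer-like cells had 14.9 CPM of Cxcl9, 47.6 CPM of Cxcl10 and 15.9 CPM of Irf8. Free RNA was not separated from expression in any of these cells.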

How the results depend on the processing

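Of 246 values over 39 results under other settings, 158 stayed within the counting interval (counts of genes within 1.5 times) and 88 moved further, while 0 log2 ratios changed sign. The log2 ratios of TECs over NECs ranged from 3.60 to 4.25 for Cxcl9, 2.40 to 3.32 for Cxcl10 and 2.27 to 2.85 for Irf8. With 1 library per condition no replicate could be left out, the intervals cover counting error only, and condition, batch and depth cannot be told apart. No paired analysis was possible because each group has 1 library. The causes of the moves below were not tested.

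With a mitochondrial limit of 5%, the share of NECs with Cxcl9, Cxcl10 and Irf8 was 17.4%, 11% and 8.56%, that of TECs with Irf8 75.8%, and the log2 ratios of Cxcl9 and Cxcl10 were 3.60 and 2.40. Capillary-like clusters then held 22.6% of the Cxcl10-positive and 13.2% of the Irf8-positive NECs, and venous-like ones 7.82%, 11.5% and 12.2% of those with Cxcl9, Cxcl10 and Irf8. Counting cells with at least 2 UMIs, 8.77%, 5.20% and 2.53% of NECs and 75.9%, 36.8% and 49.8% of TECs had Cxcl9, Cxcl10 and Irf8, with 21.0% and 8% of the Cxcl10- and Irf8-positive NECs capillary-like and 23.0% and 28.8% venous-like. At 1900 UMIs the shares were 11.9%, 7.88% and 4.70% of NECs and 67.4%, 28.0% and 23.4% of TECs, the log2 ratios of Cxcl9 and Cxcl10 were 3.79 and 2.85, and 18.9% of Cxcl10-positive NECs were venous-like. At that depth 50% of the UMIs lay in 2.22% (Cxcl9) and 1.2% (Cxcl10) of NECs and 7.95% (Irf8) of TECs.

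With 10 principal components, capillary-like clusters held 34.9%, 8.39% and 4.58% of the NECs positive for Cxcl9, Cxcl10 and Irf8, with 30 they held 59.0%, 22.9% and 13.5%, and at a resolution of 0.4 they held 49.9%, 12.2% and 7.28%. With the pathway genes kept among the variable genes the Cxcl10 share was 23.9%. By each cell's own markers, 95%, 87.6% and 87.6% were capillary-like and 0.635%, 1.47% and 1.89% venous-like.

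Keeping cells with Ptprc, Myh11, Epcam or Cspg4 gave log2 ratios of 4.06 (Cxcl9) and 2.64 (Cxcl10) and Irf8 in 8.46% of NECs. Removing cells with a leukocyte UMI gave 2.69 for Cxcl10, and 50% of Cxcl9 in 2.27% of NECs. The mean of single cells gave 2.95 for Cxcl10 and 2.57 for Irf8. Without the 1 cell with the most UMIs of the gene Cxcl10 was at 2.45, and without the top 1% Cxcl9, Cxcl10 and Irf8 were at 4.25, 3.32 and 2.85. Without the 5% of cells with the most UMIs they were at 3.93, 2.93 and 2.57, and 8.27% and 6.48% of NECs had Cxcl10 and Irf8.

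The share of cells with the second gene among those with the first depended on depth. At 1000 UMIs Cxcl10 was in 18.4% and Irf8 in 5.31% of Cxcl9-positive NECs and Irf8 in 11% of Cxcl10-positive NECs, and Irf8 was in 17.0% and 17.2% of TECs with Cxcl9 and Cxcl10. At 3000 UMIs, Cxcl10 was in 29.2% and Irf8 in 15.8% of Cxcl9-positive NECs, and Irf8 in 38.0% and 49.3% of TECs with Cxcl9 and Cxcl10. Without thinning, Irf8 was in 15.0% and 22.6% of NECs with Cxcl9 and Cxcl10 and in 73.1% and 78.7% of TECs, and Cxcl10 in 52.0% of Cxcl9-positive TECs.

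At 4-fold in place of 2-fold, 236 genes were higher and 418 lower in TECs, with 1 IRF gene lower, 0 signalling genes higher and 1 lower, and 3 type I and 2 type II targets higher. Without the CPM filter 1460 were higher and 3151 lower.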
